A study of Mus musculus with 6 samples.

Results

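The expression of 10 genes of mitophagy and selective autophagy was compared between WT and Setd5+/- mouse neural stem cells (NSCs): the mitophagy kinase gene Pink1, the receptor genes Bnip3, Bnip3l, Fundc1 and Phb2, the adaptor genes Sqstm1 and Optn, and the ATG8 family genes Map1lc3a, Map1lc3b and Gabarapl1. The rule listed them by symbol and used no measured value, although the list was drawn up with earlier results of these data known, and all 10 were found among the 53110 genes listed in the deposited RNA-seq table. Each of the 10 passed the filter of a mean of at least 10 normalized counts, as did 16266 genes in all.

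The cells were primary NSCs taken from the embryonic mouse cortex and kept in culture, adherent on Matrigel with bFGF and EGF, in an incubator at 21% oxygen. The groups were 3 samples of wild type (WT) cells and 3 samples of Setd5+/- cells, in which CRISPR-Cas9 had removed the function of 1 allele of Setd5, a gene for a SET domain protein of chromatin. The deposited columns of the Setd5+/- samples all carry the name of the same clone and share 1 sequencing index and lane, and the WT samples share another index and lane. The study asked how lowering SETD5 alters the transcription of genes for mitochondria in these cells under ambient oxygen.

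Mitophagy is the removal of mitochondria by autophagy. On depolarized mitochondria the kinase PINK1 accumulates on the outer membrane, phosphorylates ubiquitin and activates the ubiquitin ligase Parkin, and adaptors such as p62 (encoded by Sqstm1) and optineurin (Optn) then tie ubiquitinated cargo to the growing autophagosome. BNIP3, NIX (encoded by Bnip3l) and FUNDC1 are outer membrane receptors that do so without ubiquitin, and prohibitin 2 (Phb2) is an inner membrane protein that acts as a receptor once the outer membrane is broken. Adaptors and receptors alike bind the ubiquitin-like proteins of the ATG8 family, LC3 and GABARAP, which are coupled to lipid on the autophagosome membrane. Several of these genes are known as targets of transcription factors that respond to hypoxia, oxidative stress, amino acid shortage or lysosomal demand. mRNA levels do not measure mitophagy, since PINK1, p62 and LC3 are regulated strongly at the protein level.

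The 3 samples of a genotype differed from each other by no more than sampling noise. Reads were compared as read pairs, by halving the counts, because both ends of a pair appear to have been counted: 70.9% to 73.5% of the genes with 1 to 20 reads in a sample had an even number. On that scale a chi-square comparison gave 0.958 to 0.981 per degree of freedom in the 6 pairs of samples within a genotype and 31.7 to 31.9 in the 9 between genotypes. On single reads the values were 1.92 to 1.96 and 63.4 to 63.9. The variance over the mean of single reads within a genotype stayed between 1.81 and 1.98 from genes of 20 reads to genes of over 10000, and the totals of the 3 samples lay within 0.0897% of each other in WT and 0.0397% in Setd5+/-. The samples were therefore counted as 1 library a genotype (n = 1), with 9995980 to 10004948 reads on genes in each WT sample and 7143309 to 7146147 in each Setd5+/- sample. No test between the genotypes was possible, and what belongs to the genotype cannot be told apart from what belongs to the clone, the library, its index or its lane. Each difference is given as a log2 ratio of mean normalized counts, Setd5+/- over WT, with 1 normalized count added to each mean, and with a 95% interval that covers counting error only. A gene was called higher or lower at a 1.5-fold difference whose interval left out 0. Setd5 itself, looked at as a check of the labels, had 2498, 2749 and 2780 normalized counts in WT and 2151, 1990 and 2055 in Setd5+/-. Its log2 ratio was -0.37 (-0.44 to -0.31), short of the 1.5-fold required for a call. Of all tested genes, 25.2% had a lower ratio, so this value alone does not establish the genotype of the samples. The neural stem cell genes Sox2 (3119 normalized counts in WT, 2732 in Setd5+/-) and Nes (2378 and 1951) were well expressed in both libraries, and the 8 genes of that list summed to 73956 and 53919. Within that list Fabp7, a radial glial gene, went from 36015 to 11490, while Vim (9095 and 13822), Pax6 (402.0 and 529.7) and Hes5 (1222 and 1650) were higher in Setd5+/-. The 4 astrocyte genes summed to 794.6 and 1334, with Gfap at 17.1 and 263.3, S100b at 339.3 and 736.6 and Aqp4 at 57.7 and 186.6, but Aldh1l1 lower at 380.4 and 147.3. The 7 neuron genes summed to 10489 and 12701, mostly Map2 at 9983 and 12445. Lower means in Setd5+/- were seen for Dcx (248.5 and 26.2), Tubb3 (62.9 and 48.4), Snap25 (19.1 and 5.56) and Rbfox3 (7.46 and 0). Syp stood at 168.7 and 175.5, and Neurod6 had no read in either library. Of the microglia and blood list, Ptprc, Cx3cr1 and Hbb-bs had no read in either library, while Csf1r stood at 98.0 and 53.6. In bulk RNA fewer cells of a type and less RNA per cell cannot be told apart, and the part of these shifts in the values of the 10 genes was not tested.

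Of the 10 genes, 3 were called: Sqstm1 higher, and Pink1 and Map1lc3a lower. This count lay near the background, since 33.1% of all tested genes were called, 18.5% as higher and 14.5% as lower. Counting by the interval alone, 7 of the 10 differed, 1 higher and 6 lower, where 64.6% of all tested genes did, 32.2% higher and 32.3% lower. The 3 samples of WT and the 3 of Setd5+/- did not overlap for 7 of the 10 genes, 1 higher and 6 lower, against 65.3% of all tested genes, 32.4% higher and 32.9% lower. The median log2 ratio of the 10 was -0.32, beside -0.02 over all tested genes, with 3 genes above 0 and 7 below. Over all tested genes 7953 were above 0 and 8313 below.

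**Figure D1:**
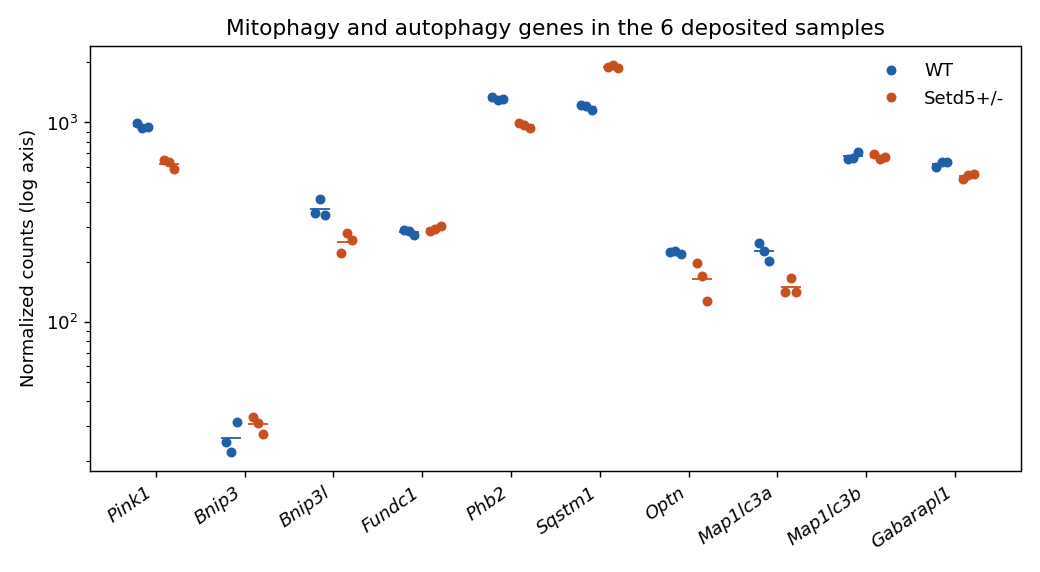
Normalized counts (log axis) of the 10 genes in each deposited sample, with WT in blue, Setd5+/- in orange and a short line at the mean of each genotype. The points of a genotype are parts of 1 library, and the 2 colours overlap only for Bnip3, Fundc1 and Map1lc3b.

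Promoter sequence was looked at for the genes that the comparison turned on. RefSeq promoters (GRCm38.p6, 250 bases before the transcription start and 50 after it) were found for 8 of the 10 genes, and Bnip3l and Map1lc3a were not in the table. The sequences of 4 are printed, each as the 250 bases upstream of the start, 5' to 3' on the strand of the gene: Pink1 and Sqstm1 because they lay at the opposite ends of the 10 differences, and Bnip3 and Phb2 because they hold a motif that was searched. Capitals mark a match to CACGTG or ACGTG, and no capitals mean no match in the printed bases.
Pink1, chr4:138326297-138326546, minus strand: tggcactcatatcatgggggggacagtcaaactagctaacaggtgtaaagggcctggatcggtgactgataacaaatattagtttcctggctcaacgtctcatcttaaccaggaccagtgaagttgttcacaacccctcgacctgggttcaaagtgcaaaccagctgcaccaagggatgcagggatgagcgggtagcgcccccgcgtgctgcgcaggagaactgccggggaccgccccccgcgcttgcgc
Sqstm1, chr11:50210821-50211070, minus strand: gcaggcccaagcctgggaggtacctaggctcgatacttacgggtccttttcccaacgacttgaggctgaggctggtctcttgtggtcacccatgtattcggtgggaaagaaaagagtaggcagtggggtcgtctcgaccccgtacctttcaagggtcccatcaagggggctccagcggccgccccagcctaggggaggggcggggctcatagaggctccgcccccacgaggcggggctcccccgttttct
Bnip3, chr7:138909507-138909756, minus strand: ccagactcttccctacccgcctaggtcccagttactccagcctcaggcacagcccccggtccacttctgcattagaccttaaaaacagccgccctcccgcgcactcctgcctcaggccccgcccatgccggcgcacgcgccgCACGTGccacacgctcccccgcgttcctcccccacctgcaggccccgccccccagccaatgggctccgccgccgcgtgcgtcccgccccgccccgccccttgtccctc
Phb2, chr6:124712039-124712288, plus strand: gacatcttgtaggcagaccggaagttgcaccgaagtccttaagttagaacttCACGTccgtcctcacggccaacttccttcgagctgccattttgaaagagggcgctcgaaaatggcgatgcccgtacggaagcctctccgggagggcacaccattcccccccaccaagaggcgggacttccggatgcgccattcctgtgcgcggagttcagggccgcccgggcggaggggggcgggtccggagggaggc

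A set of 5 short motifs were searched on both strands. They were CACGTG, the E-box at the core of the CLEAR element bound by TFEB and TFE3, ACGTG, the core of the hypoxia response element, which also lies inside every CACGTG, TGACNNNGC, the core of the antioxidant response element, TGATGNAA, the core of the CHOP-ATF4 element, and GTAAACA, a forkhead element. CACGTG was found in 1 of the 8 promoters, that of Bnip3, with its first base 108 bases before the start, and in 7.15% of all 32851 RefSeq promoters. ACGTG was found in 2 of the 8, Bnip3 at the same place and Phb2 at 198 bases before the start, and in 19.6% of all promoters. TGACNNNGC was found in Map1lc3b alone, just after the start, and in 12.4% of all promoters. TGATGNAA (3.97% of all promoters) and GTAAACA (3.65%) were found in none of the 8. The promoters of Sqstm1 and Pink1 held none of the 5, which says only that these letters are not in this window. The 8 promoters had a median GC content of 61.3% and 19 CpG sites, against 52.7% and 7 over all promoters.

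Pink1 (ENSMUSG00000028756, GRCm38 chr4:138313409-138326307, minus strand) was lower in the Setd5+/- library. It had 995.1, 935.7 and 949.0 normalized counts in WT and 646.0, 634.7 and 583.7 in Setd5+/-. The lowest WT sample lay well above the highest Setd5+/- sample, and the mean went from 959.9 to 621.5, which was 35.2% lower. The log2 ratio was -0.63 (-0.75 to -0.51), the lowest of the 10, and 13.9% of all tested genes had a lower one. Pink1 shares 110 bases of exon with Gm27646 on the same strand, at 66.3 and 45.3 normalized counts. It also shares 69 bases with Mir7019 on that strand, at 22.1 and 20.3. How the reads divide between these genes is uncertain. Pink1 is the sensor kinase of the pathway, and its level per kb of transcript was 404.2 normalized counts in WT and 261.7 in Setd5+/-. Its mean level per kb over both libraries was higher than that of 86.4% of tested genes.

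Bnip3l and Bnip3, the paralogous receptors of hypoxic and developmental mitophagy, differed from each other. Bnip3l (ENSMUSG00000022051, chr14:66985239-67008877, minus strand) had 350.8, 413.7 and 343.7 normalized counts in WT and 221.7, 277.5 and 257.3 in Setd5+/-, with no overlap. Its mean of 369.4 in WT and 252.2 in Setd5+/- gave a log2 ratio of -0.55 (-0.74 to -0.36), or 1.46-fold, so that it lay just outside the fold required for a call. Bnip3 (ENSMUSG00000078566, chr7:138890836-138909519, minus strand) had 24.9, 22.3 and 31.5 normalized counts in WT and 33.4, 31.0 and 27.4 in Setd5+/-. The genotypes overlapped, the log2 ratio was 0.21 (-0.39 to 0.82), and with 95 reads in WT and 77 in Setd5+/- a difference of 1.5-fold in Bnip3 was not detectable at this depth. The difference between the log2 ratios of Bnip3 and Bnip3l was 0.76 (0.13 to 1.40). A scaling of the libraries alters this difference only through the 1 normalized count added to each mean. Per kb of transcript Bnip3l stood 7.64 times above Bnip3 in WT and 4.47 times above it in Setd5+/-. Bnip3 was by far the lowest of the 10 in both libraries, at 14.9 and 17.4 normalized counts per kb. By the mean level over both libraries, 13.8% of tested genes stood lower. It shares 504 bases of exon with Gm45507 on the opposite strand, at 17.7 and 16.7 normalized counts beside means of 26.2 and 30.6 for Bnip3. How the reads divide between the 2 genes is uncertain, as the strand setting of the counting is not known.

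Both genes have near-identical copies elsewhere in the genome, to which an aligner can assign their reads. At 90% identity or more over at least 200 bases, Bnip3 had 4 annotated pseudogenes and Bnip3l had 1, Bnip3l-ps on chromosome 12. Of the 4, Gm6532 had no deposited values, so its reads could not be added, and none of the others passed the filter. Bnip3l-ps stood at 118.7 normalized counts in WT and 81.4 in Setd5+/-, a log2 ratio of -0.54 (-0.87 to -0.20). Adding the reads of the pseudogenes to their parent gene gave -0.55 (-0.71 to -0.38) for Bnip3l, at 488.1 and 333.6 normalized counts, and 0.20 (-0.34 to 0.75) for Bnip3. How the reads divide between Bnip3l and Bnip3l-ps is uncertain, and the difference between the libraries was much the same either way.

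Fundc1, for the outer membrane receptor whose binding to LC3 depends on its state of phosphorylation, had close values in the 2 libraries. The gene (ENSMUSG00000025040, chrX:17556564-17572325, minus strand) had 288.6, 284.6 and 274.1 normalized counts in WT and 284.8, 291.8 and 303.8 in Setd5+/-. The samples overlapped, and the log2 ratio was 0.06 (-0.14 to 0.25). Set against Bnip3l, the difference between the log2 ratios was 0.60 (0.34 to 0.87) in favour of Fundc1, whose level per kb was 1.25 times that of Bnip3l in WT and 1.90 times that in Setd5+/-.

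Phb2 encodes a prohibitin that forms ring complexes with PHB in the inner membrane and also helps to keep cristae and respiratory complexes in shape. It (ENSMUSG00000004264, chr6:124712336-124716950, plus strand) had 1336, 1299 and 1315 normalized counts in WT and 994.0, 970.5 and 935.1 in Setd5+/-. Every WT sample was above every Setd5+/- sample, and the mean was 26.6% lower, with a log2 ratio of -0.45 (-0.54 to -0.35) that did not reach 1.5-fold. Phb2 shares 141 bases of exon with Gm15884 on the opposite strand, at 136.9 and 97.7 normalized counts. In WT, Phb2 had the highest level per kb of the 10, at 999.0 normalized counts. Its partner Phb, on chromosome 11, stood at 194.4 normalized counts in WT and 80.2 in Setd5+/-, a log2 ratio of -1.27 (-1.58 to -0.95), and was called lower. More reads stood on Gm7666, a pseudogene 99.9% identical to Phb over 819 bases, with 691.8 and 401.1 normalized counts, so the value of Phb alone is uncertain. With the reads of its pseudogenes added, Phb stood at 886.7 and 481.3, a log2 ratio of -0.88 (-1.01 to -0.75).

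Sqstm1 was the only one of the 10 to be called higher. The gene for p62 (ENSMUSG00000015837, chr11:50199366-50210827, minus strand) had 1223, 1214 and 1160 normalized counts in WT and 1907, 1936 and 1876 in Setd5+/-. The lowest Setd5+/- sample lay far above the highest WT sample. The mean of 1199 in WT and 1906 in Setd5+/- was 58.9% higher, and the log2 ratio was 0.67 (0.59 to 0.75). Among all tested genes, 17.1% had a higher ratio. Sqstm1 shares 580 bases of exon with Mrnip on the opposite strand, which had 49.1 and 62.3 normalized counts, far below Sqstm1 itself.

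Optn was lower in the Setd5+/- library. This gene for an adaptor that TBK1 phosphorylates (ENSMUSG00000026672, chr2:5020642-5064051, minus strand) had 223.1, 227.5 and 217.8 normalized counts in WT and 196.7, 170.3 and 127.5 in Setd5+/-. The 3 WT values were close and the 3 Setd5+/- values were spread, without overlap. The log2 ratio was -0.43 (-0.67 to -0.19), below 1.5-fold, and ran from -0.58 to -0.28 when 1 sample at a time was left out. The log2 ratio of Sqstm1 exceeded that of Optn by 1.1 (0.85 to 1.35) and that of Pink1 by 1.29 (1.15 to 1.44). Per kb, Sqstm1 was 1.46 times the level of Pink1 in WT and 3.58 times in Setd5+/-, and 6.91 and 14.8 times the level of Optn.

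**Figure D2:**
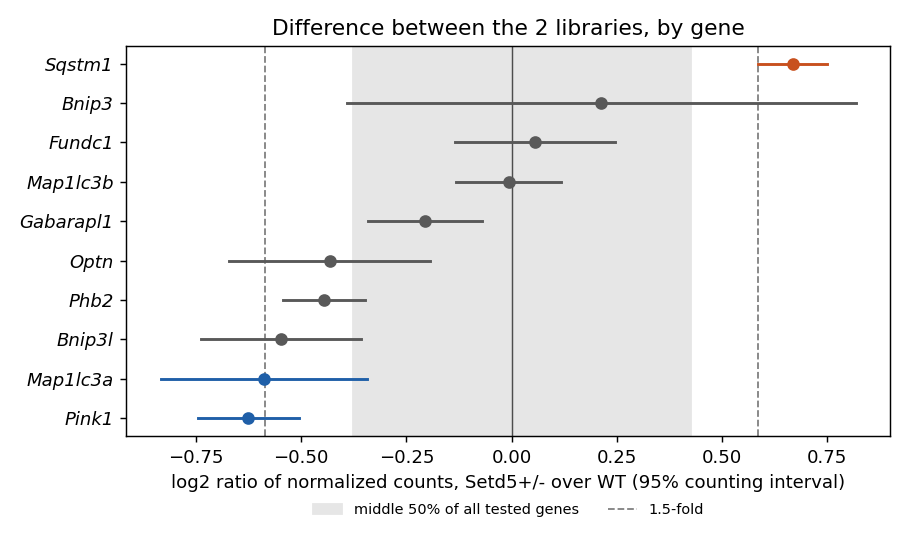
Log2 ratio of mean normalized counts, Setd5+/- over WT, for each of the 10 genes, with its 95% counting interval as a line. The grey band holds the middle 50% of all tested genes (-0.38 to 0.43) and dashed lines mark 1.5-fold. Sqstm1 (orange) was called higher, Pink1 and Map1lc3a (blue) lower, and Bnip3 has the widest interval.

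The 3 ATG8 genes among the 10 differed from each other. Map1lc3a (ENSMUSG00000027602, chr2:155276297-155278073, plus strand), for LC3A, had 249.6, 225.9 and 202.9 normalized counts in WT and 141.8, 166.7 and 141.8 in Setd5+/-. There was no overlap, and its log2 ratio of -0.59 (-0.83 to -0.34) lay just inside the 1.5-fold required for a call. In turn, Bnip3l passed the fold without WT replicate 3 (-0.60), without Setd5+/- replicate 2 (-0.62) and with libraries scaled by total reads on genes (-0.59). The call of Map1lc3a depended on single samples, with a log2 ratio of -0.51 without WT replicate 1 and -0.55 without Setd5+/- replicate 1 or replicate 3. That of Pink1 was lost without Setd5+/- replicate 3, at -0.58, and both were lost when the median of genes off chromosome 1 was set to 0, at -0.58 for Pink1 and -0.55 for Map1lc3a.

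Map1lc3b, for LC3B, the family member most used as a marker of autophagosomes, had nearly equal means in the 2 libraries. The gene (ENSMUSG00000031812, chr8:121590361-121598760, plus strand) had 657.6, 661.8 and 710.5 normalized counts in WT and 693.6, 653.8 and 673.0 in Setd5+/-. The samples overlapped and the log2 ratio was -0.01 (-0.13 to 0.12), so the counting interval left out a difference of 1.5-fold in either direction between these libraries. Of its 5 near-identical pseudogenes only Gm6055 passed the filter, at 172.8 and 172.3 normalized counts, and adding their reads left the log2 ratio at -0.01 (-0.12 to 0.11). Map1lc3b also shares 58 bases of exon with Zcchc14 on the opposite strand, at 1082 and 982.4 normalized counts.

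Gabarapl1 (ENSMUSG00000030161, chr6:129533160-129542346, plus strand), of the GABARAP branch, had 595.4, 630.4 and 636.8 normalized counts in WT and 519.6, 543.0 and 551.5 in Setd5+/-. Its samples did not overlap, and its log2 ratio of -0.21 (-0.34 to -0.07) was 13.3% lower. Its exons share 570 bases with 1700101I11Rik on the opposite strand, at 81.4 and 92.1 normalized counts. The log2 ratio of Map1lc3b exceeded that of Map1lc3a by 0.58 (0.31 to 0.86) and that of Gabarapl1 by 0.20 (0.02 to 0.38). Map1lc3b transcripts were 1.31 times as abundant per kb as those of Map1lc3a in WT and 1.97 times in Setd5+/-.

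The family as a whole was led by Gabarap in both libraries. Gabarap had a mean of 1973 normalized counts in WT and 1633 in Setd5+/-, a log2 ratio of -0.27 (-0.35 to -0.20). Its share of the summed level per kb of the 5 genes was 63.5% in WT and 63.1% in Setd5+/-. The share of Gabarapl1 was 14.8% and 15.4%, that of Map1lc3b 11.6% and 13.9%, and that of Map1lc3a 8.84% and 7.04%. The sum itself was 2300 normalized counts per kb in WT and 1917 in Setd5+/-, or 16.7% lower. Gabarapl2 had 41.5, 52.9 and 44.7 normalized counts in WT and 23.8, 23.8 and 9.53 in Setd5+/-, a log2 ratio of -1.24 (-1.89 to -0.59) that was called lower. That value is uncertain, because Gm3724, a pseudogene 99.4% identical to Gabarapl2, held more reads than the gene, at 180.6 and 134.6 normalized counts. With the pseudogene reads added Gabarapl2 stood at 227.5 and 154.5, a log2 ratio of -0.56 (-0.80 to -0.31), under the 1.5-fold required.

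**Figure D3:**
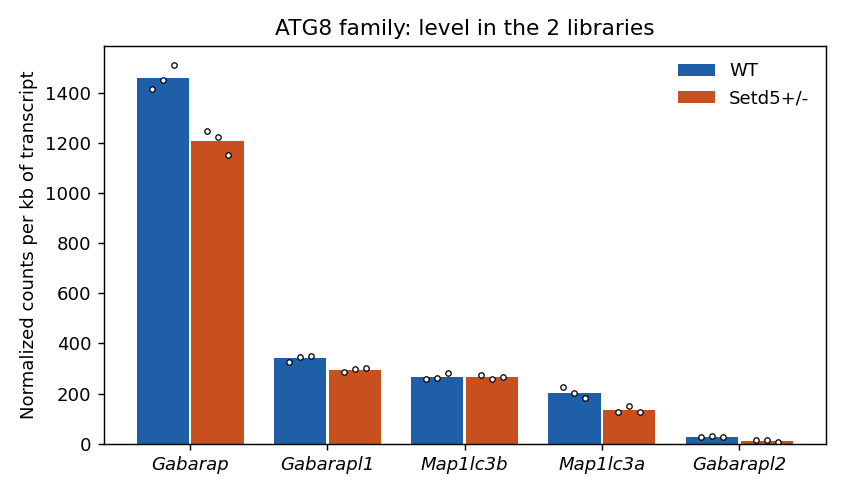
Mean normalized counts per kb of transcript for the 5 ATG8 genes, WT in blue and Setd5+/- in orange, with the 3 samples of each library as open circles. Gabarap stands highest in both libraries, and Gabarapl2, whose reads are shared with a pseudogene, lowest.

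Ordered by level per kb, the 10 genes ran in WT from Phb2 (999.0 normalized counts per kb) through Sqstm1 (588.7), Pink1 (404.2), Gabarapl1 (341.1), Map1lc3b (267.2), Map1lc3a (203.3), Fundc1 (142.4), Bnip3l (114.1) and Optn (85.2) to Bnip3 (14.9). In Setd5+/- the order changed at the top and in the middle. Sqstm1 (935.9) stood above Phb2 (733.3), Pink1 (261.7) came level with Map1lc3b (266.0) below Gabarapl1 (295.6), and Fundc1 (148.0) stood above Map1lc3a (135.0). Bnip3l (77.9), Optn (63.0) and Bnip3 (17.4) kept their places at the bottom. These levels rest on the length of 1 annotated principal transcript a gene, so they would shift for a gene that uses another transcript.

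**Figure D4:**
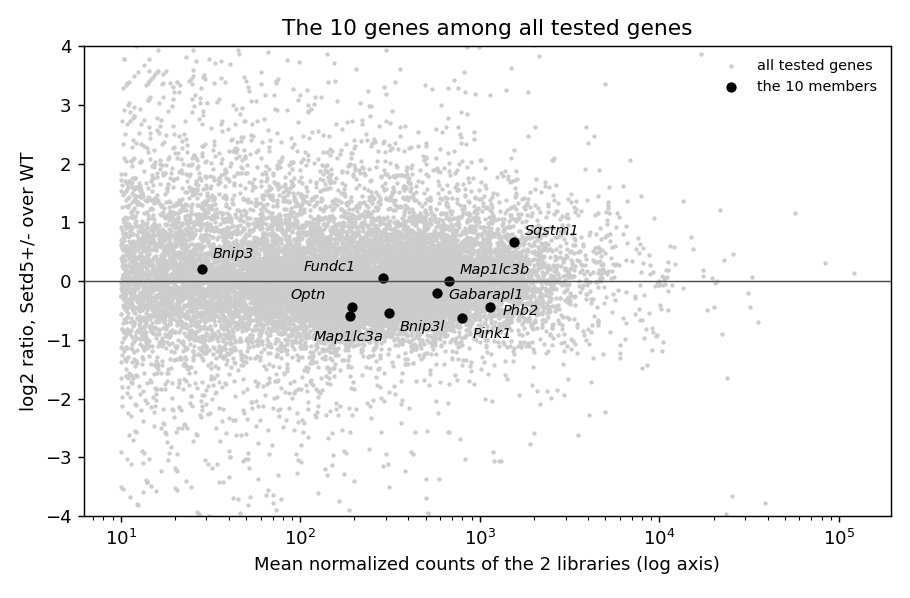
Log2 ratio, Setd5+/- over WT, against the mean normalized counts of the 2 libraries (log axis) for all 16266 tested genes in grey and the 10 genes in black. The 10 lie inside the cloud of all genes at their levels, and 154 grey points fall outside the plotted range of -4 to 4.

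No member lies on chromosome 1, where the median log2 ratio of 1044 tested genes was 0.53. The median log2 ratio of the tested genes within 1 Mb had the sign of the member for Pink1, Bnip3, Fundc1, Map1lc3a, Map1lc3b and Optn. It had the opposite sign for Bnip3l, Sqstm1, Gabarapl1 and Phb2. Around Bnip3l the 12 neighbours had a median of 0.49 beside its own -0.55, and around Sqstm1 the 21 neighbours had -0.02 beside 0.67. Around Pink1 the 22 neighbours had -0.13 beside -0.63, and around Map1lc3a the 39 had -0.15 beside -0.59. The part of the region in these values was not tested.

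The other genes of the pathway were taken from 7 lists by role, with 130 names of which 121 were tested. Together 17 were called higher and 7 lower, beside 18.5% and 14.5% of all tested genes, or 44 and 37 by the interval alone, beside 32.2% and 32.3%. Their median log2 ratio was 0.02, and no test set a list apart from all genes. Genes named from these lists beyond the largest called difference in each direction were picked after their values were seen, and near-identical copies were not searched for the lists except for Phb and the ATG8 genes.

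Among the 27 tested genes of other mitophagy receptors and the PINK1-Parkin pathway, none was called higher and 4 were called lower, which is close to the 14.5% of all tested genes called lower. Of all tested genes, 18.5% were called higher. Of the 27, 24 were below 0, beside 8313 of all 16266 tested genes, with a median of -0.22 beside -0.02 over all tested genes. The 4 called lower were Phb, Vdac2, Pgam5 and Mfn1. Vdac2, an outer membrane channel and Parkin substrate, stood at 1196 normalized counts in WT and 543.6 in Setd5+/- (log2 ratio -1.14, -1.26 to -1.01). Mfn1, the fusion GTPase that Parkin ubiquitinates, had 1597 and 966.6 (-0.72, -0.82 to -0.63), and Pgam5, a phosphatase that acts on FUNDC1, had 412.7 and 233.9 (-0.82, -1.01 to -0.62). Park2, the gene for Parkin, was low in both libraries at 43.1 and 42.1 normalized counts, with an interval of -0.53 to 0.46. Usp30, the deubiquitinase that opposes Parkin, had the highest log2 ratio of the list, 0.55 (0.39 to 0.70), and was not called. By the interval alone 1 gene of the list was higher and 14 were lower, where 32.2% of all tested genes were higher and 32.3% lower.

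The 11 tested genes of other selective autophagy adaptors had 2 called higher, close to the 18.5% of all tested genes, none called lower and a median of 0.17. Atl3, a receptor for autophagy of tubular endoplasmic reticulum, stood at 392.6 normalized counts in WT and 941.9 in Setd5+/- (log2 ratio 1.26, 1.13 to 1.39). Ccpg1, another receptor of the endoplasmic reticulum, had 494.1 and 754.1 (0.61, 0.48 to 0.74). Of the adaptors that bind ubiquitin as p62 does, Nbr1 had 2215 and 2176 (-0.03, -0.09 to 0.04) and Tax1bp1 had 1488 and 1373 (-0.12, -0.20 to -0.03).

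The machinery that makes and lipidates autophagosomes was mixed. Its counts stand beside 18.5% of all tested genes called higher and 14.5% called lower, as do those of fusion with lysosomes. Of the 13 tested genes of the ATG8 family and its conjugation enzymes that were not among the 10, none was called higher and 2 were called lower, Gabarapl2 and Atg7, the E1-like enzyme of both conjugation systems, at 594.1 and 379.6 normalized counts (log2 ratio -0.64, -0.80 to -0.49). Of the 21 genes of initiation and phagophore growth, 4 were called higher, again close to the 18.5% of all tested genes, and none lower, with a median of 0.09. These were Atg9a and Rb1cc1, both on chromosome 1, and Pik3r4 and Vmp1, with Atg9a, the lipid scramblase of the phagophore, at 570.9 and 1180 (1.05, 0.93 to 1.16). Among the 12 genes of fusion with lysosomes, 1 was called higher, the SNARE gene Stx17 at 358.9 and 599.6 (0.74, 0.59 to 0.89), and none lower, with a median of -0.19. By the interval alone, 2 of these 12 were higher and 8 lower. The same counts were 2 and 5 of the 13, and 7 and 4 of the 21. Of all tested genes, 32.2% were higher and 32.3% lower by the interval alone.

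The 12 transcription factors had 2 called higher and 1 lower, beside 18.5% and 14.5% of all tested genes. Ddit3, for the stress factor CHOP, stood at 121.8 normalized counts in WT and 581.4 in Setd5+/- (log2 ratio 2.25, 2.03 to 2.46), and Atf4 had 1372 and 2162 (0.66, 0.58 to 0.73). Tfeb, the main activator of lysosomal genes, had 123.4 and 57.2 (-1.10, -1.47 to -0.72). Of the 25 tested lysosomal genes, 8 were called higher, none lower and 17 not called, where 18.5% of all tested genes were called higher. The log2 ratio was above 0 in 23 of the 25, beside 7953 of all 16266 tested genes, and the median was 0.50, the highest of the 7 lists. By the interval alone 22 of the 25 were higher and 1 was lower, where 32.2% and 32.3% of all tested genes were. Npc1, for the lysosomal cholesterol transporter, had 1645 and 3760 (1.19, 1.13 to 1.26), and Atp6v0d1, a subunit of the proton pump, had the lowest ratio of the list at -0.48 (-0.58 to -0.38).

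**Figure D5:**
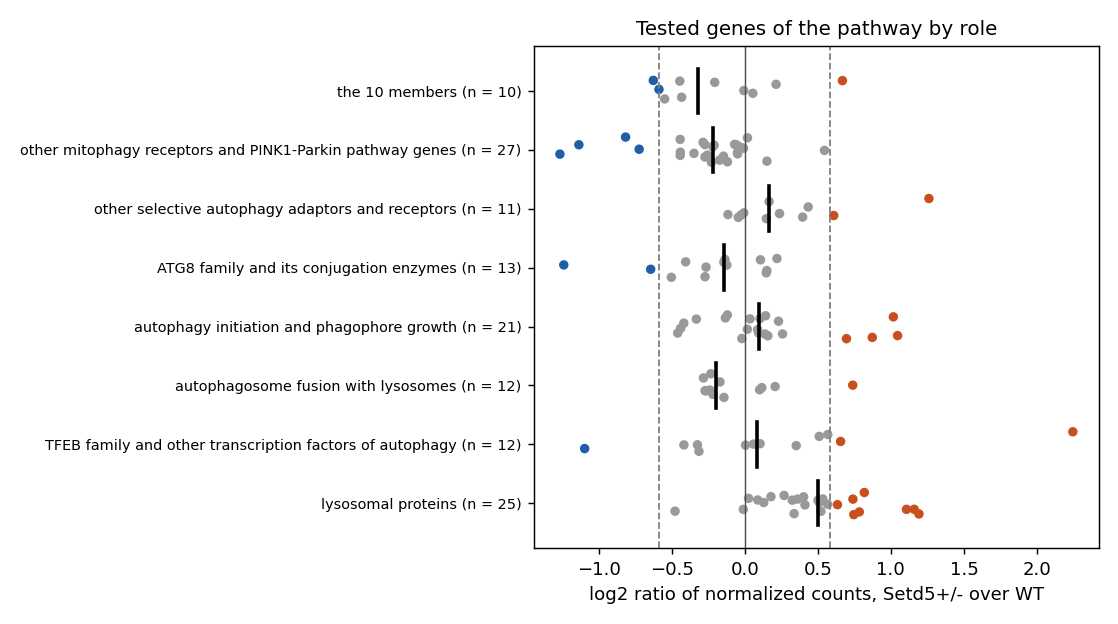
Log2 ratio, Setd5+/- over WT, of every tested gene by role, with the 10 genes in the top line, a black bar at each median and dashed lines at 1.5-fold. Orange points were called higher and blue points lower. The median lies below 0 for the 10 genes (-0.32) and for other mitophagy receptors and PINK1-Parkin pathway genes (-0.22). It also lies below 0 for fusion with lysosomes (-0.19) and for the ATG8 family and its conjugation enzymes (-0.14). It lies furthest to the right for lysosomal proteins (0.50).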

How the data were processed

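Total RNA of the NSCs was made into libraries with the TruSeq RNA v2 kit and sequenced as paired ends on an Illumina HiSeq. The authors trimmed reads with Trimmomatic and aligned them with Bowtie2, which does not splice reads, to mm10. The counting program and its strand setting are not given in the sources used here, so reads of overlapping, antisense and near-identical genes can be mixed. The values the authors deposited are counts divided by DESeq2 size factors, with their decimal points lost. The same table holds the authors' own comparison (fold changes and p-values), which was not used.

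The points were restored by finding the value of 1 read in each sample (0.827 to 0.829 normalized counts in WT, 1.19 in Setd5+/-) and placing each point where the value was a whole number of reads. The deposited mean placed the point in 1116 genes, which match it by construction. The restored mean had the digits of the deposited mean, whose point was also lost, in 52438 of 52438 genes with values. Of these, 26797 had a value above 0 in any sample, and the rest match trivially. On simulated data 48000 of 48000 values were recovered.

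The variance over the mean of the reads within a genotype, 1.95 in WT and 1.94 in Setd5+/-, set the counting intervals. In a simulation with counting error only over 16266 genes, 95 of 102 genes changed 2-fold and 98 of 98 changed 3-fold were called, and 118 of 16066 unchanged genes were called. It held no variation between libraries or clones, so it gives no rate of false calls between the genotypes. Since the samples of a genotype are parts of 1 library, no SD or p-value is given. PCR copies are not independent molecules, so intervals cover counting error only. The members and the lists were chosen with earlier results of these data known. The rule for named genes took Setd5, all 10 members, the ATG8 family, and in each list the called gene with the largest difference in each direction. Other genes of the lists were named after their values were seen. Positions, transcript lengths and pseudogenes came from GENCODE vM21 (GRCm38), with blastn 2.17.0 for the search of copies. Alternatives were other scalings, pseudocounts (0.5 and 5), filters (none, or a mean of 50) and calls, leaving out samples, and limma 3.58.1 in R 4.3.3.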

Additional observations from a re-analysis of the deposited data

How the results depend on the processing

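All 120 of the 120 alternative values of the single members kept their direction or moved by less than the counting error. The log2 ratio of Map1lc3b changed sign, running from -0.05 to 0.04 over the other settings. Every setting reused the reads of the same 2 libraries, so these values do not measure a spread between libraries. The count of members called lower, 2 as reported, was 0 with the median of genes off chromosome 1 set to 0, 1 with a pseudocount of 5 and 3 with libraries scaled by total reads on genes. Leaving out 1 sample at a time, it ran from 0 (without Setd5+/- replicate 3) to 3 (without WT replicate 3 or Setd5+/- replicate 2). The median of all pathway lists together, 0.018 as reported, was -0.021 when libraries were scaled by total reads on genes, 0.060 with the median of genes off chromosome 1 set to 0, and 0.0092 to 0.051 leaving out 1 sample at a time. At a 2-fold call, 0 members were called higher and 0 lower, beside 1666 and 991 of all genes and 7 and 4 genes of the pathway lists. By the counting interval alone, 1 member was higher and 6 were lower, beside 5239 higher and 5261 lower of all genes and 44 and 37 of the pathway lists. The counts at a 2-fold call and by the interval alone differ from those reported because the fold was set differently.

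With limma over the 6 samples, which compares the reads of 2 libraries and not the genotypes, 1 member higher and 6 lower, 4935 genes higher and 5028 lower, and 40 and 37 genes of the pathway lists passed an adjusted p of 0.05. With the replicate block, the counts were 1 member higher and 6 lower, 4934 and 5012 genes, and 40 and 36 genes of the pathway lists. The numbers did not pair the samples, since the deviations of same-numbered samples had correlations of -0.0014, -0.030 and -0.016, and no sample numbers were crossed. Scaling moved the median of all genes by -0.04 to 0.04. Depth limited Bnip3 most among the members. The reads of pseudogenes were added as an alternative chosen after seeing the data.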
